A study of Mus musculus with 4 samples.

Results

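The genes that code for ribosomes and proteasomes were examined for OTX2 regions at their ends. They were all protein-coding genes of the mm10 RefSeq table whose symbols match a fixed pattern. The pattern takes Rpl and Rps (cytosolic ribosome), Mrpl and Mrps (mitochondrial ribosome) or Psm with a letter from a to g (proteasome), each followed by a digit. The pattern took 226 of 21883 genes placed on chromosomes, 97 with Rpl or Rps symbols, 78 with Mrpl or Mrps symbols and 51 with Psm symbols. Of these, 14 were classed as naming no subunit, among them the S6 kinases (Rps6k), which the pattern takes by their spelling. They are kept as members and given apart. Assembly chaperones, such as the Psmg genes and Psmd10, were classed with the subunits. For each gene, regions were counted whose midpoint lay within 1 kb of either end of the gene (end regions) and regions whose nearest end of the gene lay over 1 kb and up to 100 kb away (distal regions).

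The samples were profiled by CUT&RUN, in which an antibody tethers a nuclease to a chromatin protein and the released DNA is sequenced. OTX2 is a homeodomain transcription factor of the epiblast and anterior endoderm. The mouse lines were OTX2-dTAG-EGFP lines of a BL6/129 hybrid background, with OTX2 read through an HA tag. The 4 samples were primitive streak (PS) cells, made from epiblast stem cells (EpiSCs) with 40 ng/ml Activin A and 3 uM CHIR for 16 h. Of these, 3 were anti-HA libraries from lines 7H, 7H1 and 7H2, and 1 was an IgG library from line 7H2. EpiSC medium held 175 nM NVP, FGF2 at 12.5 ng/ml and Activin A at 20 ng/ml. To reach definitive endoderm (DE), PS cells were moved to 100 nM LDN with 100 ng/ml Activin A for another 24 h. No library of EpiSCs or of DE is among these samples, and all samples carried the tagged allele. By the names of the region lists, DE and EPI calls also entered them. Those calls rest on libraries outside the 4 samples, and their assay, lines and replicates are not given here. The values are 4 deposited lists of regions, PS only (1634 regions), PS and DE (6157), DE only (31445) and EPI and PS (379, with EPI as the file name writes it). The lists hold no height and no value per library, so depth is unknown, anti-HA cannot be set against IgG, and there is no spread between replicates. Region lists carry no expression either, so the labelled cell type could not be set against marker genes. No test was made, because these genes were chosen with earlier results known. Intervals in brackets are 95% intervals of counting error alone, and neighbouring genes that share a region are not independent.

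Ribosomes translate messenger RNA, with a large subunit built from RPL proteins and a small subunit built from RPS proteins. Mitochondria hold a ribosome of their own, made of MRPL and MRPS proteins that nuclear genes encode. The proteasome degrades tagged proteins in a barrel-shaped 20S core (PSMA and PSMB subunits) under a 19S cap (PSMC ATPases and PSMD subunits). These genes are transcribed in nearly all cells, mostly from promoters rich in CpG, and they are commonly used as a reference for housekeeping transcription.

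DE only regions lay at the ends of 77 of the 226 ribosome and proteasome genes, 34.1% (28.2 to 40.5), against 20.9% of all 21883 genes. The 77 genes formed 86 pairs of a gene and a region, from 84 separate regions. A single end region was found at 70 genes, a pair at 5, and 3 regions at each of 2 genes. Per gene, ribosome and proteasome genes held 0.381 ± 0.578 end regions (SD over 226 genes) and other protein-coding genes 0.232 ± 0.481 (SD over 21657 genes), with a median of 0 in both. The ratio of the means was 1.64 (1.31 to 2.03). Among regions of at least 150 bp, 20 members had one (8.85%) against 7.12% of other genes, and the ratio was 1.2 (0.734 to 1.87), so the difference was smaller among wide regions. Widths at member ends ran from 63 to 402 bp around a median of 110 bp, and 22.6% of the 84 regions reached 150 bp, against 31.5% of the 4406 DE only regions at ends of other genes.

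Around the same genes, at 1 to 100 kb, the difference was smaller. DE only regions were present in that range at 220 of 226 genes, 97.3% (94.3 to 98.8), against 85.9% of all genes. The mean was 4.68 ± 2.79 distal regions per member and 3.99 ± 3.16 per other gene (SD over genes), a ratio of 1.17 (1.10 to 1.25), and the median was 4 in both. Without olfactory, vomeronasal, Gm and Rik symbols among the other genes, a setting added after seeing the data, the distal ratio was 1.06 (0.997 to 1.13) and the end ratio 1.45 (1.16 to 1.80). The direction of the distal ratio depended on the counting, because with each region given only to its nearest gene end it was 0.614 (0.514 to 0.728), and by construction genes with close neighbours then hold less ground. The 18442 genes kept without those symbols had a DE only end region in 23.5% of cases.

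**Figure D1:**
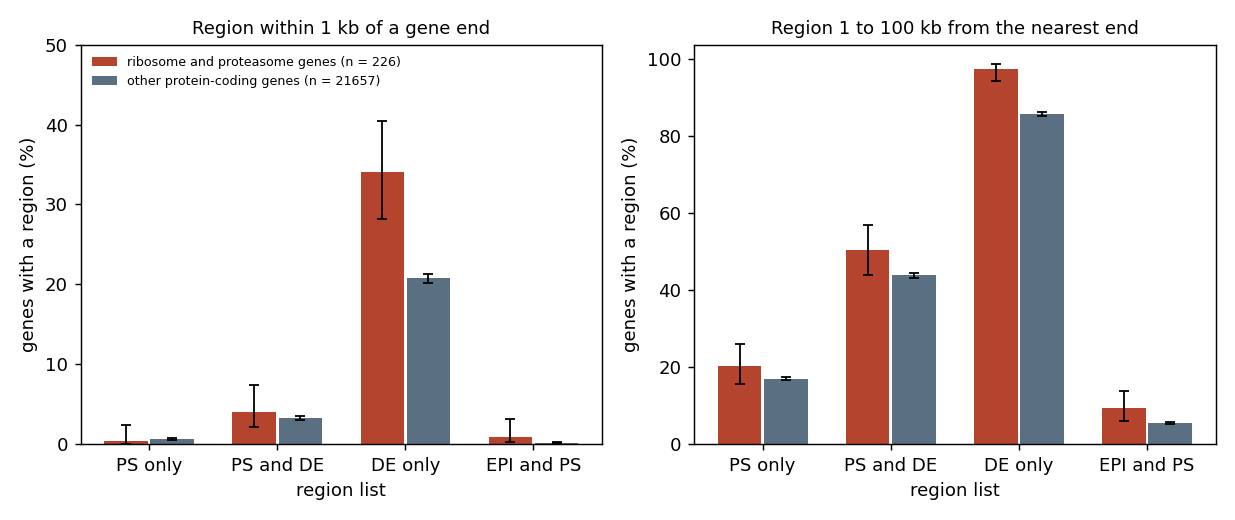
Percentage of genes with at least 1 region within 1 kb of an end (left) and at 1 to 100 kb (right) for each region list, with 95% Wilson intervals as error bars. At gene ends, ribosome and proteasome genes (34.1%) stand above other genes (20.8%) in DE only, while the intervals of the bars overlap in PS only and in PS and DE. In EPI and PS they do not overlap (0.243 to 3.17% against 0.124 to 0.235%), but the 2 members counted there share 1 region.

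The lists that include PS held few end regions at these genes. PS and DE regions lay at the ends of 9 of 226 genes, 3.98% (2.11 to 7.39), against 3.24% of all genes, and the ratio of means was 1.17 (0.534 to 2.24). At 1 to 100 kb they were present at 114 members, 50.4%, against 43.9% of all genes, with a ratio of 1.12 (0.961 to 1.29). PS only regions lay at the end of 1 member, 0.442%, against 0.635% of all genes, and in the distal range at 46 members, 20.4%, against 17.1%. The distal ratio for PS only was 1.19 (0.895 to 1.54). For EPI and PS an end region was counted at 2 members, 0.885%, against 0.178% of all genes (ratio 4.91, 0.575 to 19). Both members share 1 region, which the interval treats as 2 separate counts. The distal count for EPI and PS was 21 members, 9.29%, against 5.62%, and the ratio was 1.64 (1.04 to 2.44). The interval of this distal ratio stayed above 1 under some alternatives and included 1 under others. Among the latter were a range to 50 kb (1.21, 0.577 to 2.23) and regions of at least 150 bp (1.51, 0.549 to 3.31). With 1, 9 and 2 genes, the interval of the end ratio included 1 in each of these 3 lists (0.0172 to 3.88 in PS only). For EPI and PS it lay above 1 under 3 of the 9 alternatives, on 5 members or fewer. The ratio was 5.7 (1.81 to 13.8) within 2.5 kb. It was 12.2 (1.38 to 49.7) for genes with no neighbouring end and 24 (2.48 to 120) for regions of at least 150 bp. These last 2 values rest on the same 1 region counted for 2 members, so their intervals are too narrow. Given only to the nearest end, PS and DE had a distal ratio of 0.355 (0.203 to 0.578) and PS only one of 0.562 (0.225 to 1.16). In all, 85 of 226 genes (37.6%) had an end region of some list, against 24.0% of other genes.

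At the gene ends, the higher density of DE only regions lay within 500 bp. Within 250 bp of an end, ribosome and proteasome genes held 57 pairs, or 252 DE only regions per Mb of sequence at that distance, against 145 per Mb at other genes, a ratio of 1.74. From 250 to 500 bp, with 17 member pairs, the densities were 76.0 and 36.1 per Mb, a ratio of 2.10. From 500 bp to 1 kb they were 27.5 and 27.1 per Mb and from 1 to 2 kb 22.7 and 21.7 per Mb, so the groups lay side by side there. From 2 to 5 kb the members were lower, at 16.1 against 17.7 per Mb. They were higher from 5 to 10 kb (21.0 against 17.0 per Mb) and close from 10 to 20 kb (17.9 against 17.1). Between 20 and 50 kb the members were again higher, at 23.8 against 17.0 per Mb, as they were from 50 to 100 kb (22.9 against 16.8). Of the 86 DE only pairs, 53 lay within 150 bp of the end (61.6%), against 53.4% of the 5025 pairs at other genes. Nearest the 1 kb limit, the Rpl22 region lay 970 bp and the Rpl36 region 925 bp from an end, just inside. Rpl7l1 (1124.5 bp, a further region), Rpl13a (1146 bp) and Psma4 (1166 bp) had regions just outside.

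**Figure D2:**
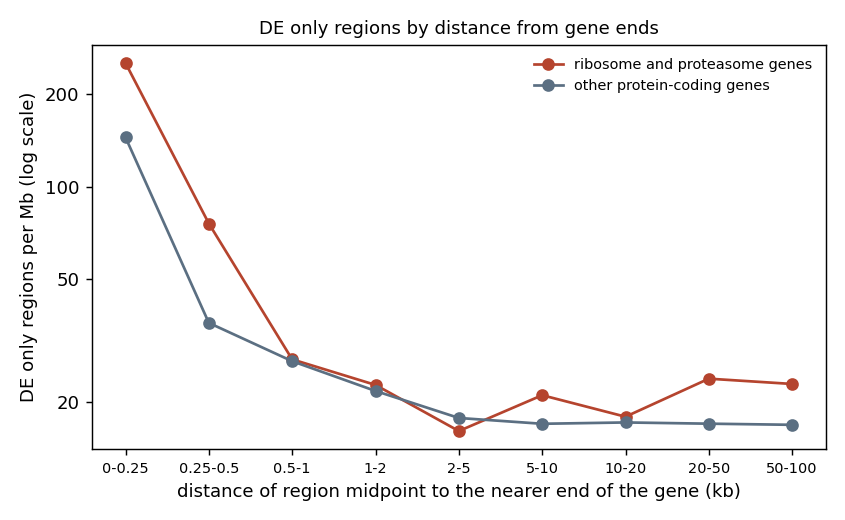
DE only regions per Mb (log axis) against the distance of the region midpoint from the nearer end of the gene, in 9 bins of unequal width. The curve of ribosome and proteasome genes lies above that of other genes up to 0.5 kb (252 against 145 per Mb in the first bin) and meets it from 0.5 to 2 kb.

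The nearer end was mostly the start of the gene, taken in these end counts as the outer 5′ end of the RefSeq span, which at some genes lies apart from the start site of the promoter table. The RefSeq promoter table gives a strand for 187 of the 226 genes. Of 69 DE only pairs at those genes, 55 lay nearer the start and 14 nearer the far end, so 79.7% (68.8 to 87.5) were start regions, against 86.8% at other genes. The midpoint lay upstream of the start in 43 of the 55, and the median offset was -51 bp (minus is upstream). Of all 86 pairs, 18 midpoints fell inside the gene span, 20.9%, against 35.3% at other genes. Set directly over RefSeq promoters (250 bases before to 50 after the start site), DE only regions covered part of 49 of 187 member promoters, 26.2% (20.4 to 32.9), and part of 14.6% of 17304 other promoters. The region spanned the start site itself in 25 of these 49. The midpoints lay at a median of -61 bp at members and -65.5 bp at other genes. Only regions that overlap this window enter these medians, which limits how far they can differ. Such a region was missed by the count at gene ends at 6 genes (Mrpl24, Mrps23, Psma3, Psmf1, Rpl19 and Rps2), because their RefSeq span begins 1413 to 10282 bp beyond this start site.

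**Figure D3:**
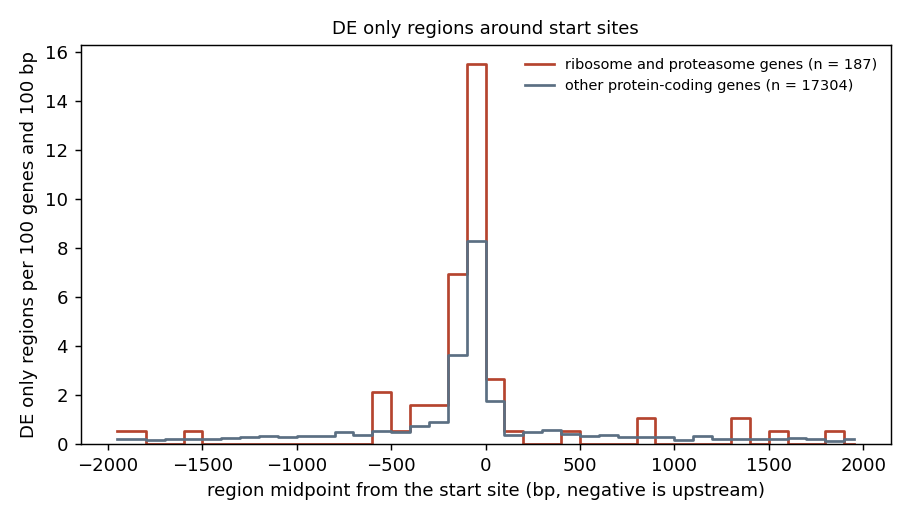
DE only regions per 100 genes in bins of 100 bp around the start site, for 187 ribosome and proteasome genes and 17304 other genes. Both profiles peak in the 100 bp before the start, at 15.5 regions per 100 genes for the members and 8.28 for the others.

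Promoters that carried a region from a list other than DE only are shown first, because they are the few with a region in a list that includes PS. Each is the RefSeq promoter (GRCm38.p6), 5′ to 3′ on the strand of the gene, and capitals mark the bases inside the OTX2 region. Rpl27 (chr11:101441995-101442294, plus strand) codes for a large-subunit protein and held the PS only region. Rpl14 (chr9:120571267-120571566, plus) codes for a large-subunit protein and Rps7 (chr12:28635904-28636203, minus) for a small-subunit protein. Mrpl50 (chr4:49521034-49521333, minus) codes for a protein of the large mitochondrial subunit. Psmd10 (chrX:140956662-140956961, minus) codes for gankyrin, an assembly chaperone of the 19S cap. These last 4 held PS and DE regions.
Rpl27: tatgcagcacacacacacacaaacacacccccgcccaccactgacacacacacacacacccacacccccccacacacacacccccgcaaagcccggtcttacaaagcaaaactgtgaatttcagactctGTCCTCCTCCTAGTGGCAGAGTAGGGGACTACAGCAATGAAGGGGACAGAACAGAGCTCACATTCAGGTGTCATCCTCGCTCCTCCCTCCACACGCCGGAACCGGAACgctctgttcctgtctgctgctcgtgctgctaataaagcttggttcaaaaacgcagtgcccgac
Rpl14: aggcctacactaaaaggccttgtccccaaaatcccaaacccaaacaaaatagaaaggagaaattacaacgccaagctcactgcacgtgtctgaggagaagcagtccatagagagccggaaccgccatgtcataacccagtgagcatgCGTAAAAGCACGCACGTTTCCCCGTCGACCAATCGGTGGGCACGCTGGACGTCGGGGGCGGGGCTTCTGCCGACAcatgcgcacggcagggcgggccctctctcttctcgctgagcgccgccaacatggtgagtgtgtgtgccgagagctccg
Rps7: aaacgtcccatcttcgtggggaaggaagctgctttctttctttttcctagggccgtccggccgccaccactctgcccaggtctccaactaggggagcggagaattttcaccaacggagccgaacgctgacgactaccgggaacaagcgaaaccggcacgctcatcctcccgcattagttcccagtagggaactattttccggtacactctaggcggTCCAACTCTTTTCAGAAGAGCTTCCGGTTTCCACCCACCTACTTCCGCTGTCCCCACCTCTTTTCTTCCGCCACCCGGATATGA
Mrpl50: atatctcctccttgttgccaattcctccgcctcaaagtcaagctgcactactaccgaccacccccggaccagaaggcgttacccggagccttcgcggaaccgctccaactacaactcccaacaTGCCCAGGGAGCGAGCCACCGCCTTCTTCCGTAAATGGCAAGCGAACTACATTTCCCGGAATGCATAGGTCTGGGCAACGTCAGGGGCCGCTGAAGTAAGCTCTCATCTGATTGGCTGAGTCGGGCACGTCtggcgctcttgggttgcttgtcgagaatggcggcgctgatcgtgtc
Psmd10: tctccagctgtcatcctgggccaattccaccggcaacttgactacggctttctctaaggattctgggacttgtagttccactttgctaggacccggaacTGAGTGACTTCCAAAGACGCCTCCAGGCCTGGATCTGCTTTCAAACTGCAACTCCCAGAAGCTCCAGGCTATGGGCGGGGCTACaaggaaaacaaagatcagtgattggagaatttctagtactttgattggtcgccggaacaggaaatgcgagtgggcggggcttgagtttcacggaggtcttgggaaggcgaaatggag

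The covered bases ran from -121 to -14 at Rpl27, from -103 to -29 at Rpl14 and from -151 to -68 at Psmd10, counting the start site as 0, and so ended upstream of it. At Mrpl50 they ran from -127 to 3 and at Rps7 from -34 to the end of the printed window, across the start site. At Rpl27 a DE only region lay on the other side of the start, at chr11:101442328-101442392, 115 bp inside the gene. The remaining 5 PS and DE genes had their region outside the printed windows. Mrpl36, a mitochondrial large-subunit gene, had it 79 bp inside the outer start of its span (chr13:73328543-73328621), where Ndufs6 also has an end within 1 kb. Psma5, a 20S core gene, had it 196.5 bp inside its start (chr3:108257072-108257173). Psmb8, which codes for an immunoproteasome core subunit, had it 559 bp upstream (chr17:34197568-34197704), within 1 kb of an end of Tap1. Rpl18 had its region 801.5 bp past the far end (chr7:45721581-45721692), within 1 kb of an end of Fam83e, and Rpl22l1 had it 516.5 bp past the far end (chr3:28807897-28807984).

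Rpl27, Rpl22l1 and Rpl18 were among the genes with end regions from more than 1 list. Rpl22l1, a paralog of Rpl22, had a DE only region 107 bp upstream of its start (chr3:28805360-28805442) beside the PS and DE region at its far end. At Rpl18 a DE only region lay 247.5 bp past the far end (chr7:45720992-45721173), so both lists fell on the side of Fam83e. Rpl13a, a large-subunit gene, had an EPI and PS region 257.5 bp past its far end, 162 bp wide.

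Among the 3 complexes, the share of genes with a DE only end region was highest for the cytosolic ribosome, though its interval overlaps that of the mitochondrial ribosome and no difference between classes was tested. Of 53 Rpl genes 22 had one, 41.5% (29.3 to 54.9), and of 32 Rps genes 14 had one, 43.8% (28.2 to 60.7), both against the 20.9% of all genes. Together the 85 genes stood at 42.4% (32.4 to 53.0). The Rpl genes were Rpl3, Rpl7, Rpl7a, Rpl7l1, Rpl8, Rpl9, Rpl10a, Rpl13, Rpl15, Rpl18, Rpl22, Rpl22l1, Rpl26, Rpl27, Rpl28, Rpl32, Rpl34-ps1, Rpl36, Rpl36al, Rpl37, Rpl38 and Rpl39. Their 24 regions lay 2.5 to 970 bp from an end, with a median of 195 bp. Several of these symbols (Rpl34-ps1, Rpl36al, Rpl7l1, Rpl22l1) belong to copies or relatives of other ribosomal genes. Near-identical copies elsewhere in the genome make read placement less certain for this family, and the handling of reads with several placements is not stated in the labels. The Rps genes included Rps3, Rps3a1, Rps6, Rps9, Rps12, Rps13, Rps15a, Rps18, Rps20, Rps23 and Rps24. The 18 regions of the 14 genes lay 21.5 to 825 bp from an end, with a median of 76.3 bp, closer than those of the Rpl genes.

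The cytosolic genes with the most DE only end regions were Rps18 and Rpl7l1, with 3 each. At Rps18 (chr17:33951998-33955665, minus) 1 region lay 141.5 bp upstream of the start, and the others lay 144 and 825 bp past the far end, near an end of B3galt4. At Rpl7l1 (chr17:46773907-46782656, minus) regions lay 47 and 514.5 bp upstream of the start and 339 bp past the far end. Rps9 had regions 45 bp upstream of its outer start and 221.5 bp past its far end. Rps15a had them 127.5 bp upstream of the start and 158.5 bp past the far end. The far-end region of Rps15a was 266 bp wide, the widest at an Rps gene. The widest at Rpl genes were 385 bp, 431 bp from an end of Rpl34-ps1, and 346 bp, 127.5 bp upstream of Rpl37. At Rpl9 the midpoint lay 2.5 bp from the start.

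Mitochondrial ribosome genes followed, with 27 of 78 holding a DE only end region, 34.6% (25.0 to 45.7). The large subunit had 17 of 49 genes (34.7%, 22.9 to 48.7) and the small subunit 10 of 29 (34.5%, 19.9 to 52.7). The large-subunit genes were Mrpl1, Mrpl2, Mrpl10, Mrpl11, Mrpl12, Mrpl16, Mrpl17, Mrpl20, Mrpl21, Mrpl23, Mrpl32, Mrpl37, Mrpl40, Mrpl46, Mrpl48, Mrpl51 and Mrpl58. The small-subunit genes were Mrps11, Mrps16, Mrps18b, Mrps18c, Mrps21, Mrps26, Mrps27, Mrps28, Mrps34 and Mrps36. The closest region was that of Mrpl58, which codes for a peptidyl-tRNA hydrolase built into the large subunit, with its midpoint 1 bp from the outer start of the span and at -27 bp from the start site of the promoter table. Mrps34 had a region 2 bp from one end and another 179.5 bp beyond the opposite end (its strand is not in the promoter table). Mrpl51 had regions 39.5 and 529.5 bp upstream of its start. Mrpl1 had a region 597 bp inside the outer start of its span, with its midpoint at -20 bp from the start site of the promoter table, and another 368.5 bp inside its far end. The widest DE only end region of all 84 was at Mrpl48, 402 bp, 829.5 bp inside the gene and within 1 kb of an end of Rab6a. Mrps21 (173 bp wide) and Mrps28 (170 bp) had the widest regions of the small subunit.

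Proteasome genes stood at the background. Of 49 genes 10 had a DE only end region, 20.4% (11.5 to 33.6), against the 20.9% of all genes. The 19S non-ATPase genes held 6 of these among 14 genes (42.9%, 21.4 to 67.4): Psmd1, Psmd4, Psmd7, Psmd9, Psmd12 and Psmd13. Psmd4 codes for a ubiquitin receptor of the cap, and its region was 204 bp wide with its midpoint 32.5 bp upstream of the start. The 20S core held 3 of 19 (15.8%, 5.52 to 37.6), Psma1, Psma2 and Psmb7, and the 19S ATPases 1 of 6, Psmc3. The activators and inhibitor (Psme, Psmf) held 0 of 6, which allows a share of up to 39.0% (Wilson), and the assembly chaperones (Psmg) 0 of 4, which allows up to 49.0%. Classes follow the letter of the symbol, so the 19S non-ATPase class also holds assembly chaperones. Among these are Psmd10 and Psmd9, the latter 1 of the 6 genes listed above. These small classes cannot be ranked, and the difference between ribosome and proteasome genes was not tested. Psmf1, the inhibitor PI31, is among the genes whose promoter was covered outside the end count. Distal DE only regions did not follow the same order, with 5.29 ± 3.37 per proteasome gene, 4.76 ± 2.56 per cytosolic and 4.17 ± 2.53 per mitochondrial ribosome gene (SD over genes).

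Of the 14 symbols classed as naming no subunit, 4 had a DE only end region (28.6%, 11.7 to 54.6), with the 20.9% of all genes inside the interval. Rps6ka1 and Rps6ka3 code for RSK kinases of the MAPK pathway, with regions 439 and 375.5 bp outside the gene. Rps19bp1 codes for a binding partner of the RPS19 protein, with a region 111 bp upstream. Psmc3ip codes for a factor of meiotic recombination, with a region 25.5 bp inside its start. With these 14 left out, 73 of 212 genes had a region (34.4%, against 20.8% of other genes) and the ratio was 1.67.

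**Figure D4:**
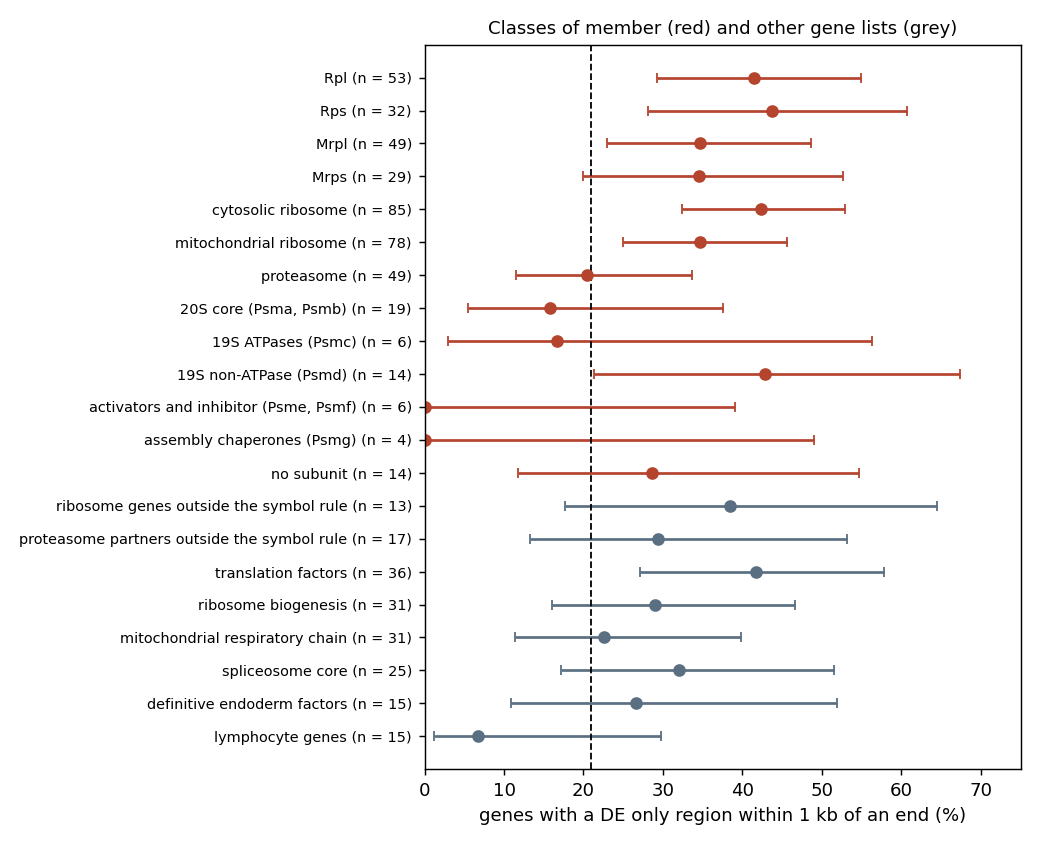
Percentage of genes with a DE only end region in each class of ribosome and proteasome gene (red) and in 8 other fixed gene lists (grey), with 95% Wilson intervals and the 20.9% of all genes as a dashed line. The cytosolic ribosome genes lie at 42.4%, the proteasome genes at 20.4% and the translation factors at 41.7%.

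**Figure D5:**
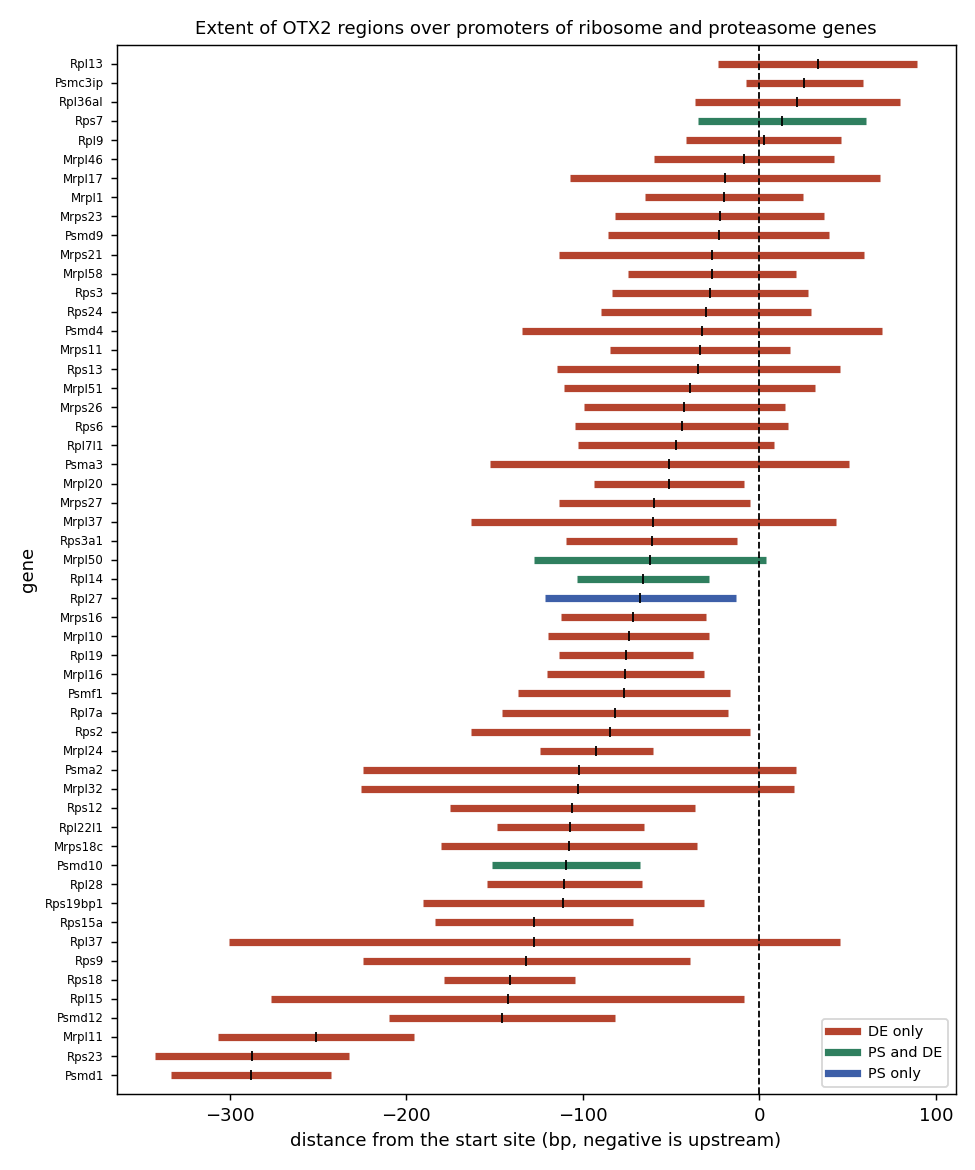
Extent of each OTX2 region over the promoters of 54 ribosome and proteasome genes, 1 row per gene, with black ticks at the midpoints and a dashed line at the start site. Midpoints of the 49 DE only regions run from -288 to 33 bp, and 45 of them lie upstream.

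Promoter coverage by class gave the same order. DE only regions covered 21 of 65 cytosolic ribosome promoters in the table, 32.3% (22.2 to 44.4), 19 of 69 mitochondrial ribosome promoters, 27.5% (18.4 to 39.0), and 7 of 41 proteasome promoters, 17.1% (8.53 to 31.3). The share of the 17304 other promoters was 14.6%, which lies inside the proteasome interval. In the same order of classes, the median midpoint lay at -81.5, -51 and -76.5 bp. All 19 mitochondrial and all 7 proteasome midpoints were upstream of the start site, as were 18 of the 21 cytosolic ones.

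Some regions lay at the ends of more than 1 gene. Of the 84 DE only regions at member ends, 28 also lay within 1 kb of an end of another protein-coding gene (33.3%), against 14.0% of the 4380 regions at ends of other genes only. Members have such a neighbour more often, 43.4% against 24.6%, and they are shorter, with a median span of 5.31 kb against 17.4 kb. Among the 128 members with no neighbouring end within 1 kb, 35.2% had a DE only end region, against 17.9% of such other genes. Among members with a neighbour the share was 32.7%, against 29.7%. The nearest gene end belonged to a member for 71 of the 84 regions.

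Both DE only regions that served a pair of members are printed here, because a single stretch of DNA carries both starts. Psma2, a 20S core gene, and Mrpl32, of the mitochondrial large subunit, lie head to head on chromosome 13 and share a region of 245 bp (chr13:14613018-14613262), 102 bp upstream of Psma2 and 103 bp upstream of Mrpl32. Mrps11 and Mrpl46, of the small and large mitochondrial subunits, share a region of 102 bp (chr7:78783047-78783148), 33.5 bp upstream of Mrps11 and 8.5 bp upstream of Mrpl46. The promoters are those of Psma2 (chr13:14612992-14613291) and Mrps11 (chr7:78782881-78783180), both on the plus strand, and capitals mark the region.
Psma2: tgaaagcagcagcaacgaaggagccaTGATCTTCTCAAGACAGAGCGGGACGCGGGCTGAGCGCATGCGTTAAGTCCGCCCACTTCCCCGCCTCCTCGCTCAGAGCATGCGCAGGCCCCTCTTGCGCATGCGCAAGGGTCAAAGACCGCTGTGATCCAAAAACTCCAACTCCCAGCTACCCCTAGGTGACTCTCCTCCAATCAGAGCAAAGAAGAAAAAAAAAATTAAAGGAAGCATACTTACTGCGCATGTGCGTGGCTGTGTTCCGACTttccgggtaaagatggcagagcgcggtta
Mrps11: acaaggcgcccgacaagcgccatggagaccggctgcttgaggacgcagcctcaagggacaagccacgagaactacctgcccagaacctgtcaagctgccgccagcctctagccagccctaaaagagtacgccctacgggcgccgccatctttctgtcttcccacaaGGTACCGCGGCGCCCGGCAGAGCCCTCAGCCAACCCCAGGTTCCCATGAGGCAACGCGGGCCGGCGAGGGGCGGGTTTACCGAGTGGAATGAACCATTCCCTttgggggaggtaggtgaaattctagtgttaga

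The base composition of these promoters differed from the average. The 187 member promoters had a median GC content of 58.0% against 56.3% of all 17491 promoters, and a median observed over expected CpG of 0.806 against 0.577. Motifs were searched on both strands in windows of 300 bases, and the letters of no motif contain those of another. CCGGAAG, the ETS family core, occurred in 63 of 187 member promoters (33.7%) and in 11.9% of all promoters. AAGATGGC, the YY1 core, occurred in 11.2% against 3.21%. The other motifs differed less. GGGCGG (SP/KLF) occurred in 54.0% against 46.3%, TGACNNNGC (antioxidant element, read by the proteasome regulator NFE2L1) in 18.7% against 13.1% and TATAAA in 9.09% against 13.3%. CCAAT (36.4% against 39.2%) and CACGTG (8.02% against 7.91%) were close, the NRF1 motif occurred in 3.21% against 1.33% and the ZNF143 and THAP11 motif in 4.81% against 2.78%. Members with and without a DE only region had similar shares of the ETS core, 36.7% of 49 and 32.6% of 138. The YY1 core occurred in 14.3% and 10.1% of them. Other genes differed more, with the ETS core in 22.0% of 2521 promoters with a DE only region and 9.92% of 14783 without. Their median observed over expected CpG was 0.789 with a region and 0.484 without, against 0.824 and 0.792 at members. Whether promoter type accounts for the share of members with a region was not tested.

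The letters TAATCC, a core that OTX2 and related homeodomain proteins prefer, were as frequent at members (12 of 187 promoters, 6.42%) as at all promoters (6.49%). They occurred in 4 of the 49 member promoters with a DE only region (8.16%) and in 8 of the 138 without (5.80%). At other genes the order was the reverse, with 5.99% of 2521 promoters with a region and 6.58% of 14783 without. Within the bases a DE only region covered, TAATCC occurred at 2 of 49 member promoters (4.08%) and at 82 of 2521 other promoters (3.25%). It occurred in the covered bases of 6.38% of the 345 other promoters with a PS and DE region, and at 0 of the 4 member promoters with one. These are matches of letters in a window and not sites. The 2 members, Rpl9 (chr5:65391382-65391681, minus) and Rps9 (chr7:3703791-3704090, plus), are printed with the match in capitals, in either orientation. It begins at the start site of Rpl9 and at -199 of Rps9.
Rpl9: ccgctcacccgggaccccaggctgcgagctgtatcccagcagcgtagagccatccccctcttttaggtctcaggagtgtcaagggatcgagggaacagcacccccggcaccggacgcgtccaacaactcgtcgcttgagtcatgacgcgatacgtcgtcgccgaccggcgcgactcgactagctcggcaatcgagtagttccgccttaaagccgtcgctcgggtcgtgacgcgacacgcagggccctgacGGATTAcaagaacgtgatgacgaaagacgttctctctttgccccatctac
Rps9: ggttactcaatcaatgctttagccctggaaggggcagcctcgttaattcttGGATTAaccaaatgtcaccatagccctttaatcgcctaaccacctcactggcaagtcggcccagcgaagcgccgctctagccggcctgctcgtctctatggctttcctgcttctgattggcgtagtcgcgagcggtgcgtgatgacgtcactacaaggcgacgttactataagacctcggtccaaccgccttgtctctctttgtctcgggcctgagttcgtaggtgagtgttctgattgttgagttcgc

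Other gene lists, widely transcribed genes and lymphocyte genes for contrast, had DE only end regions at shares from 6.67% to 41.7%, against the 20.9% of all genes. Ribosome genes outside the symbol pattern had them at 5 of 13 genes (38.5%, 17.7 to 64.5), among them 2 at Rpsa, a small-subunit gene, and 1 each at Rplp0 and Rplp2, of the ribosomal stalk. Translation factors had them at 15 of 36 genes (41.7%, 27.1 to 57.8), with 2 at Eif4g1, a scaffold of initiation. Spliceosome core genes stood at 8 of 25 (32.0%, 17.2 to 51.6), proteasome partners at 5 of 17 (29.4%, 13.3 to 53.1) with Usp14 and Ubb, ribosome biogenesis genes at 9 of 31 (29.0%, 16.1 to 46.6) with 3 at Fbl, and respiratory chain genes at 7 of 31 (22.6%, 11.4 to 39.8) with 2 at Ndufa4. Lymphocyte genes stood at 1 of 15 (6.67%, 1.19 to 29.8), at Cd3g. The respiratory chain share lay near the 20.9% of all genes, and of the 7 intervals that of the translation factors alone lay wholly above it. All 7 overlap the 28.2 to 40.5 of the ribosome and proteasome genes, which does not show the shares to be alike, and no difference between lists was tested.

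Definitive endoderm factors differed in the list that held their regions. Of 15 such genes, 6 had a PS and DE end region (40.0%, 19.8 to 64.3), against 3.24% of all genes, with 2 at Cer1, a secreted NODAL and BMP inhibitor, and 1 each at Eomes and Lhx1. Ribosome and proteasome genes stood at 3.98% in the same list. In DE only the endoderm factors had 4 of 15 (26.7%, 10.9 to 52.0), with the 20.9% of all genes inside the interval, and 7.93 distal regions per gene, against 4.68 per ribosome and proteasome gene. These factors were listed with earlier results of these data known, so their counts are a description.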

How the data were processed

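Anti-HA and IgG CUT&RUN was run on 500000 PS cells per sample, per the labels' protocols. The authors deposited 4 lists of regions (chromosome, start, end), with no score and no value per library. The submitters' processing notes name mm10, MACS2 2.2.6, bedtools 2.30, Picard 2.26.10, SAMtools 1.14 and Bowtie2 2.3.5.1. Not given in the sources used here are their order, thresholds, use of IgG and way of combining replicates and stages.

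Starts were converted to count from 1. Genes were the RefSeq protein-coding genes of GRCm38.p6 (mm10), without the mitochondrial genome, and regions off the chromosomes (2, both DE only) were left out. Promoters, strand and start sites came from the RefSeq promoter table, which matched 187 of 226 members. For genes with several promoters, the one nearest the outer start was used. Shares have Wilson intervals, and ratios of means have intervals from the exact binomial interval of the member count. Both cover counting error only. Members and gene lists were chosen with earlier results of these data known. Genes named are those with an end region in the 3 lists with few, the 10 with the most in DE only, those with regions of several lists, the widest per class, the 4 with the most distal regions, non-subunits with a region and up to 3 per other list; genes of the ribosome and proteasome classes are also listed, and a few genes that entered the counts are not reported here by name. One proteasome partner symbol of 18 was not matched. Counting was tested on simulated regions, where 200 of 200 planted regions were found among 21883 genes. Alternatives were end windows of 0.5 and 2.5 kb, any base for the midpoint, regions of at least 150 bp, merging within 500 bp, subunit symbols only, genes without a neighbouring end, nearest end only, a distal range to 50 kb and, added after seeing the data, other genes without olfactory, vomeronasal, Gm and Rik symbols. Python 3.11.15, pandas 2.3.3 and scipy 1.17.1 were used.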

Additional observations from a re-analysis of the deposited data

How the results depend on the processing

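Of 108 alternative values, 87 stayed within 1.5 times the count or within the interval of the ratio. With regions of at least 150 bp, members with an end region numbered 20 in DE only, 0 in PS and DE and 0 in PS only. The end ratios were then 1.2 (DE only), 0 (PS and DE), 0 (PS only) and 24 (EPI and PS, from 2 members that share 1 region). The distal ratio of PS only was 1.59. Only genes with no neighbouring end gave 45 members in DE only and 5 in PS and DE, of 128, and a distal ratio of 1.31 in DE only. A window of 0.5 kb gave 1 member in EPI and PS, and 2.5 kb gave 5 there and 2 in PS only. With each region counted only for the nearest end, EPI and PS had 1 member, and the distal ratios were 0.614 in DE only, which reversed it, 0.355 in PS and DE and 0.562 in PS only. By construction this setting gives less ground to genes with close neighbours. To 50 kb, the distal ratio was 1.08 in DE only and 0.865 in PS and DE. Against other genes without olfactory, vomeronasal, Gm and Rik symbols it was 1.06 in DE only. The DE only end ratio lay between 1.2 and 1.91 over 9 alternatives. No paired analysis was possible because the region lists hold no value per sample. Region heights and library depth are unknown, so weak and strong regions weigh alike, and no region can be checked in single libraries.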

Other observations

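Away from their ends, the ribosome and proteasome genes with the most regions in all lists were Psmb5 and Psmb11, with 16 distal regions each (13 of DE only, 2 of PS and DE and 1 of EPI and PS), but no end region. They code for the chymotrypsin-like core subunit and for its thymus form, and lie beside each other on chromosome 14, so their 100 kb windows largely overlap. Rps25 also held 16 distal regions (12 of DE only) and Mrps23 15 (12 of DE only). At the other extreme, Mrpl13 and Rpl6 had no region of any list within 100 kb of an end (2 of 226 genes, 0.885%, against 11.6% of other genes). Psmd10 had its PS and DE region 109.5 bp from its start and 0 distal regions of any list. Mrps34 had 2 DE only end regions and 0 distal DE only regions.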
